A study of Homo sapiens with 8 samples.

Results

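The chromatin was mapped over PRDM1, IRF4 and XBP1, genes of the step from B cell to plasma cell, in HT and SUDHL6. Both are established lines from diffuse large B cell lymphoma, a cancer of mature B cells, and neither was treated. ChIP-seq was done for trimethylated lysine 4 of histone H3 (H3K4me3), for trimethylated lysine 27 of histone H3 (H3K27me3) and for the methyltransferase EZH2. Each combination of line and antibody had 1 library, so there were 6 libraries, and the authors deposited 1 list of enriched islands for each, on hg19. The 3 genes were chosen by name, and an island was counted as theirs when at least 1 bp of it lay in the gene or within 5 kb of either end. Of the 58757 islands in the 6 lists, 9 met this rule. The gene spans were chromosome 6 from 106534195 to 106557814 for PRDM1 (23.62 kb), chromosome 6 from 391739 to 411443 for IRF4 (19.7 kb) and chromosome 22 from 29190548 to 29196560 for XBP1 (6.01 kb). PRDM1 and IRF4 are read from the lower to the higher position and XBP1 in the other direction.

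Plasma cells arise when a B cell shuts down its germinal centre programme and builds a large secretory apparatus. IRF4 is a transcription factor of the interferon regulatory factor family that is needed for this step. PRDM1, also called BLIMP1, is a zinc finger repressor that silences B cell genes. XBP1 is a basic leucine zipper factor of the unfolded protein response that drives expansion of the endoplasmic reticulum, and it is also used in many other cell types. H3K4me3 marks active or poised promoters. H3K27me3 is written by Polycomb repressive complex 2, whose catalytic subunit is EZH2, and it marks repressed chromatin. Promoters that carry both marks are common at developmental genes.

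The promoter bases of the 3 genes are printed because histone marks were called over the starts of IRF4 and XBP1 and not over that of PRDM1. They come from RefSeq on GRCh38.p14, another build than that of the islands, so they were joined to the genes by symbol and not by position. All 3 genes matched, and where the table held a second start, the one whose distance to the gene's far end was nearest to the span used here was taken. Each line gives the 250 bases before the start, 5′ to 3′ in the direction of transcription. Capitals mark matches, on either strand, to any of 6 motifs. These were the GC box GGGCGG, the CCAAT box CCAAT, the TATA box TATAAA, the endoplasmic reticulum stress element (CCAAT and CCACG with 9 bases of any kind between them, which stay in lower case), the interferon response core (GAAA repeated after 2 bases of any kind) and the PRDM1 core ACTTTC. The stress element begins with a CCAAT box, so these motifs overlap.
PRDM1, chr6:106086086-106086335, plus strand: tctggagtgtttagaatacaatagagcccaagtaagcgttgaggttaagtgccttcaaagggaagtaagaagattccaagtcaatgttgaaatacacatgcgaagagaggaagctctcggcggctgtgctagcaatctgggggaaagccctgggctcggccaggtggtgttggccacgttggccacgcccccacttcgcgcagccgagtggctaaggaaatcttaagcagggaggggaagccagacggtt
IRF4, chr6:391502-391751, plus strand: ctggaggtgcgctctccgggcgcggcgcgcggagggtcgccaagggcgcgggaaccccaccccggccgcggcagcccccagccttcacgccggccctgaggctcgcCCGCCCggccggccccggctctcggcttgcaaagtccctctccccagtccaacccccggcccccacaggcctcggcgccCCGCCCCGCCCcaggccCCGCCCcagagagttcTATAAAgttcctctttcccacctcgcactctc
XBP1, chr22:28800570-28800819, minus strand: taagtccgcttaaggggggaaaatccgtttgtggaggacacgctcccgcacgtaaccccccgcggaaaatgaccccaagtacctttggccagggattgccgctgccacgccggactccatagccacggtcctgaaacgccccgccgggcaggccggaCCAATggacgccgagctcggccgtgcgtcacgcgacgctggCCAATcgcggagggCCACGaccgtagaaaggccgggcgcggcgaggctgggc

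The promoters differed in base composition. The PRDM1 bases held 11 CpG pairs, the median of the 35116 promoters of the table, with 53.6% G and C. The IRF4 bases held 28 CpG pairs with 76% G and C, and the XBP1 bases held 31 with 67.6%. Fewer CpG pairs than IRF4 were found in 84.1% of all promoters, and fewer than XBP1 in 89.1%. In the IRF4 bases, 4 matches to the GC box were found, the last 3 of them between 65 and 43 bases before the start, and 1 match to the TATA box from 32 to 27 bases before it. The GC box was present in 42.6% of all promoters and the TATA box in 10.7%. The XBP1 bases held 2 CCAAT boxes, a motif present in 32% of promoters. The second of them, from 52 bases before the start, opened a full stress element, which 26 of the 35116 promoters held (0.074%). PRDM1 held no match to any of the 6 motifs. The interferon response core and the PRDM1 core matched none of the 3 and were present in 3.02% and 11.4% of promoters. A match is a description of the letters and not a site shown to be bound.

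The 3 genes had 3 different states, and 2 of them differed between the lines. XBP1 had H3K4me3 over its start in both lines and neither H3K27me3 nor EZH2. At IRF4, a broad H3K27me3 island and an H3K4me3 island lay together over the start in SUDHL6, whereas HT had only small H3K27me3 islands. At PRDM1, neither line had H3K4me3, HT had small H3K27me3 islands and SUDHL6 had no island of any antibody. No EZH2 island lay within 5 kb of any of the 3 genes in either line. Lack of EZH2 was the usual state of islands of either histone mark. EZH2 of the line lay within 5 kb of 9.85% of HT and 2.69% of SUDHL6 H3K4me3 islands. For H3K27me3 islands the shares were 10.1% and 13.7%. Among SUDHL6 H3K27me3 islands at least as wide as that of IRF4, lack of EZH2 was less usual, since 44.0% overlapped EZH2. Of the 18 combinations of gene, line and antibody, 6 held an island and 12 did not. The same count over all genes was not made, since no hg19 positions of other genes were used. With 1 library each there was no test between the lines, the depth of the libraries is unknown, and a missing island is a missing call, not absence of the mark. The score of an island is the authors' own value, and its meaning is not stated, so it is used only to rank islands within a list. The input libraries were not analysed here, so enrichment over input at these genes was not checked.

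**Figure D1:**
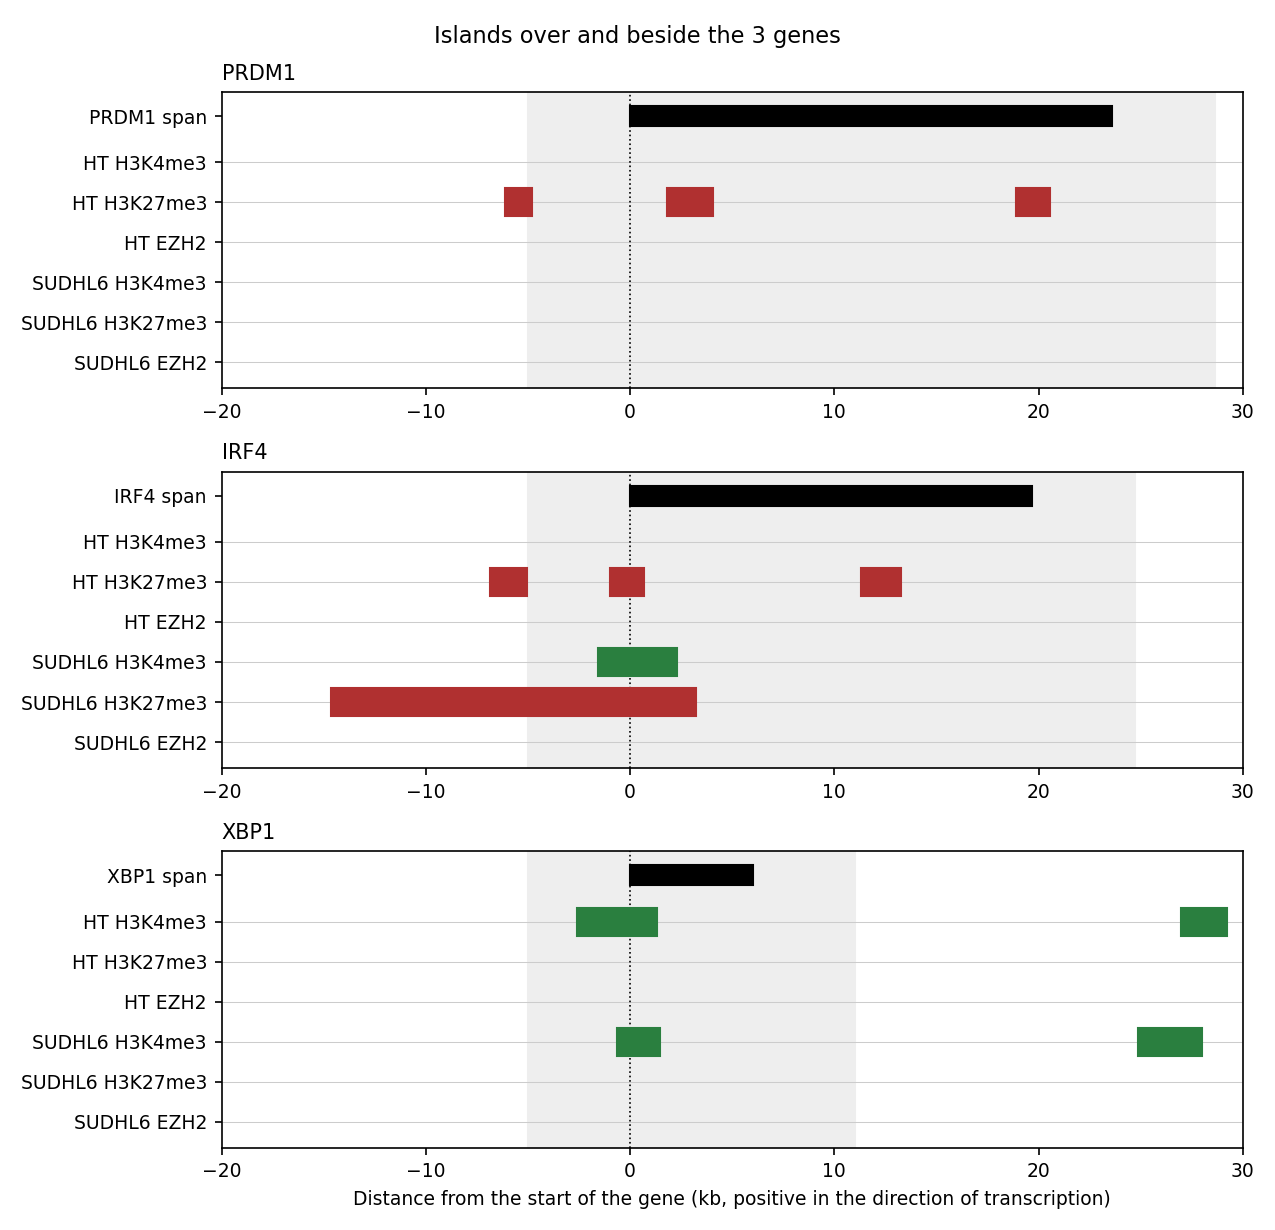
Islands of the 6 lists (rows) over PRDM1, IRF4 and XBP1, by distance in kb from the start of each gene (dotted line) in the direction of transcription; the black bar is the gene, grey is the gene with 5 kb on each side, green is H3K4me3, red H3K27me3, and the EZH2 rows are empty. The 17.85 kb H3K27me3 island of SUDHL6 runs across the start of IRF4 with the 3.9 kb H3K4me3 island inside it, and XBP1 has only H3K4me3.

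IRF4 in SUDHL6 carried both histone marks over its start. The H3K27me3 island lay on chromosome 6 from 377101 to 394950, from 14.6 kb before the start to 3.21 kb after it, and so over the first part of the gene and not over its far end. It was 17.85 kb wide with a score of 546 (30.6 per kb). Of the 13159 SUDHL6 H3K27me3 islands, 99.2% were narrower and 99.5% had a lower score. The median island of that list was 3000 bp wide with a score of 59.

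The H3K4me3 island of SUDHL6 at IRF4 lay from 390151 to 394050, from 1.59 kb before the start to 2.31 kb after it. It was 3.9 kb wide with a score of 172, and 88.8% of the 13736 islands of its list were narrower and 91.8% had a lower score. All of it lay inside the H3K27me3 island, of which it covered 21.8%. Such an arrangement was rare in the list. An H3K27me3 island of the line was overlapped by 2.35% of SUDHL6 H3K4me3 islands (exact Clopper-Pearson 95% interval 2.10 to 2.62%), and 0.320% (44 islands, 0.233 to 0.430%) lay wholly inside one. Among these 44, with a median width of 1200 bp, 3 islands including that of IRF4 were at least 3.9 kb wide, and 2 had a score of at least 172. Islands of separate libraries that overlap do not show that both marks lie on the same nucleosome, allele or cell. These intervals cover counting error only.

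EZH2 was not called at IRF4 in SUDHL6, although the H3K27me3 there ranked among the widest. No SUDHL6 EZH2 island lay between the start of chromosome 6 and the gene. The nearest lay 450008 bp beyond its end, from 861451 to 867000 (5.55 kb, score 192). Over the whole list, 9.45% of SUDHL6 H3K27me3 islands (1244 of 13159) overlapped EZH2 of the line. Of the 109 islands at least as wide as that of IRF4, 44.0% (34.5 to 53.9%) did, and of the 62 with at least its score 46.8% (34.0 to 59.9%) did. The IRF4 island was 1 of the 61 of these 109 without EZH2. H3K4me3 was held by 7 of the 109 (6.42%, 2.62 to 12.8%), and 3 of them, that of IRF4 included, held H3K4me3 without EZH2 (2.75%, 0.571 to 7.83%). That width and score were set by the IRF4 island itself, so these counts only describe where it stands.

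In HT, IRF4 had H3K27me3 in small pieces and no H3K4me3. One island lay over the start from 390751 to 392400 (1.65 kb, score 42), reaching 0.988 kb before and 0.661 kb after it. A second lay inside the gene from 403051 to 405000 (1.95 kb, score 34), 11.3 to 13.3 kb after the start. Of the 16919 HT H3K27me3 islands, 22.7% and 31.8% were narrower than these and 40.5% and 27.9% lower in score. By score per kb the island over the start stood higher, with 84% of the list lower at 25.5 per kb, and the one inside the gene did not (23.4% lower at 17.4 per kb). Another, from 384901 to 386700 (1.8 kb, score 30), ended 5039 bp before the gene and so just outside the rule. The island over the start and this one lay wholly within the broad SUDHL6 island. H3K27me3 in SUDHL6 where HT has it was the less frequent state over the list, in which 21.2% of HT H3K27me3 islands overlapped one of SUDHL6. From the other side, 27.8% of SUDHL6 H3K27me3 islands overlapped one of HT, and of the 109 at least as wide as that of IRF4 66.1% (56.4 to 74.9%) did.

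The nearest HT H3K4me3 to IRF4 lay 97889 bp before the gene, and the next on the other side 280808 bp beyond it. Over SUDHL6 H3K4me3 islands of all widths and positions, 59.0% overlapped an HT one and the rest did not. The share among islands over gene starts, or as wide or as high in score as that of IRF4, was not computed. Of the gene and its flanks, H3K27me3 covered 8212 bp in SUDHL6 and 3600 bp in HT, and H3K4me3 covered 3900 bp and 0 bp. The H3K27me3 difference lay mostly in the upstream flank: inside the gene it covered 3212 bp in SUDHL6 and 2612 bp in HT. HT minus SUDHL6 was -4612 bp with flanks of 5 kb, -612 bp with flanks of 1 kb and -600 bp with neighbouring islands joined. Over the whole lists the covered length of H3K27me3 was 51.3 Mb in SUDHL6 and 54.4 Mb in HT, and that of H3K4me3 was 33.0 Mb and 25.5 Mb.

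PRDM1 had H3K27me3 in HT alone and in small islands. H3K27me3 of HT alone was the usual state of the list, in which 21.2% of islands overlapped one of SUDHL6 and 13331 of 16919 did not. The first lay upstream from 106528051 to 106529400 (1.35 kb, score 36) and ended 4795 bp before the gene, so that only 206 bp of it fell within the 5 kb flank, just inside the rule. The second lay from 106536001 to 106538250 (2.25 kb, score 33), 1.81 to 4.06 kb after the start. The last lay from 106553101 to 106554750 (1.65 kb, score 27), 18.9 to 20.6 kb after the start. None of them covered the start itself. All had scores below the list's median of 49, with 31.3%, 26.2% and 15.4% of HT H3K27me3 islands lower. By score per kb the upstream island stood apart, with 86.8% of the list lower at 26.7 per kb, against 3.73% and 13.8% for those inside the gene at 14.7 and 16.4 per kb. Within the gene H3K27me3 covered 16.5% of its length. As at IRF4, these islands had neither EZH2 nor H3K4me3 of the line within 5 kb, a state shared by 86.7% of HT H3K27me3 islands.

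In SUDHL6 no island of any antibody lay near PRDM1. The nearest H3K27me3 ended 655345 bp before the gene, from 105877051 to 105878850 (1.8 kb, score 26), and the next in the other direction began 1459587 bp beyond it. The nearest EZH2 lay 10132887 bp beyond the gene and 17654695 bp before it. H3K4me3 was 93745 bp before the gene, as a 600 bp island with a score of 22 that was among the smallest of its list (1.57% narrower). In HT the nearest H3K4me3 ended at the same position, 93745 bp before the gene, and the nearest beyond it lay 214587 bp away. In SUDHL6 that distance was 214287 bp.

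That upstream segment held all 3 antibodies in HT. The HT EZH2 island from 106439851 to 106443450 (3.6 kb, score 64) was the nearest EZH2 to PRDM1, at 90745 bp. It overlapped the HT H3K4me3 island from 106439101 to 106440450 (1.35 kb, score 33) by 600 bp and contained an HT H3K27me3 island from 106441201 to 106443150 (1.95 kb, score 62). The H3K4me3 and H3K27me3 islands themselves did not overlap. Both marks were overlapped by 7.17% of HT EZH2 islands (6.20 to 8.25%). In SUDHL6 only the 600 bp H3K4me3 island lay there.

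A segment about as far before IRF4 also held EZH2 in HT. The HT EZH2 island from 291001 to 291900 (0.9 kb, score 29) was the nearest to IRF4, at 99839 bp, and was among the smallest of its list, with 0.238% narrower. It lay inside an HT H3K4me3 island from 290851 to 293850 (3.0 kb, score 77), and an HT H3K27me3 island from 286051 to 289500 (3.45 kb, score 83) ended shortly before both. H3K4me3 was overlapped by 33.8% of HT EZH2 islands. SUDHL6 had H3K4me3 there from 289501 to 295050 (5.55 kb, score 182) and no EZH2. By gene order in RefSeq on GRCh38.p14, the protein-coding genes beside IRF4 are DUSP22 and EXOC2, and those beside PRDM1 are PREP and ATG5. The islands were not assigned to them, since no positions of other genes on hg19 were used here.

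**Figure D2:**
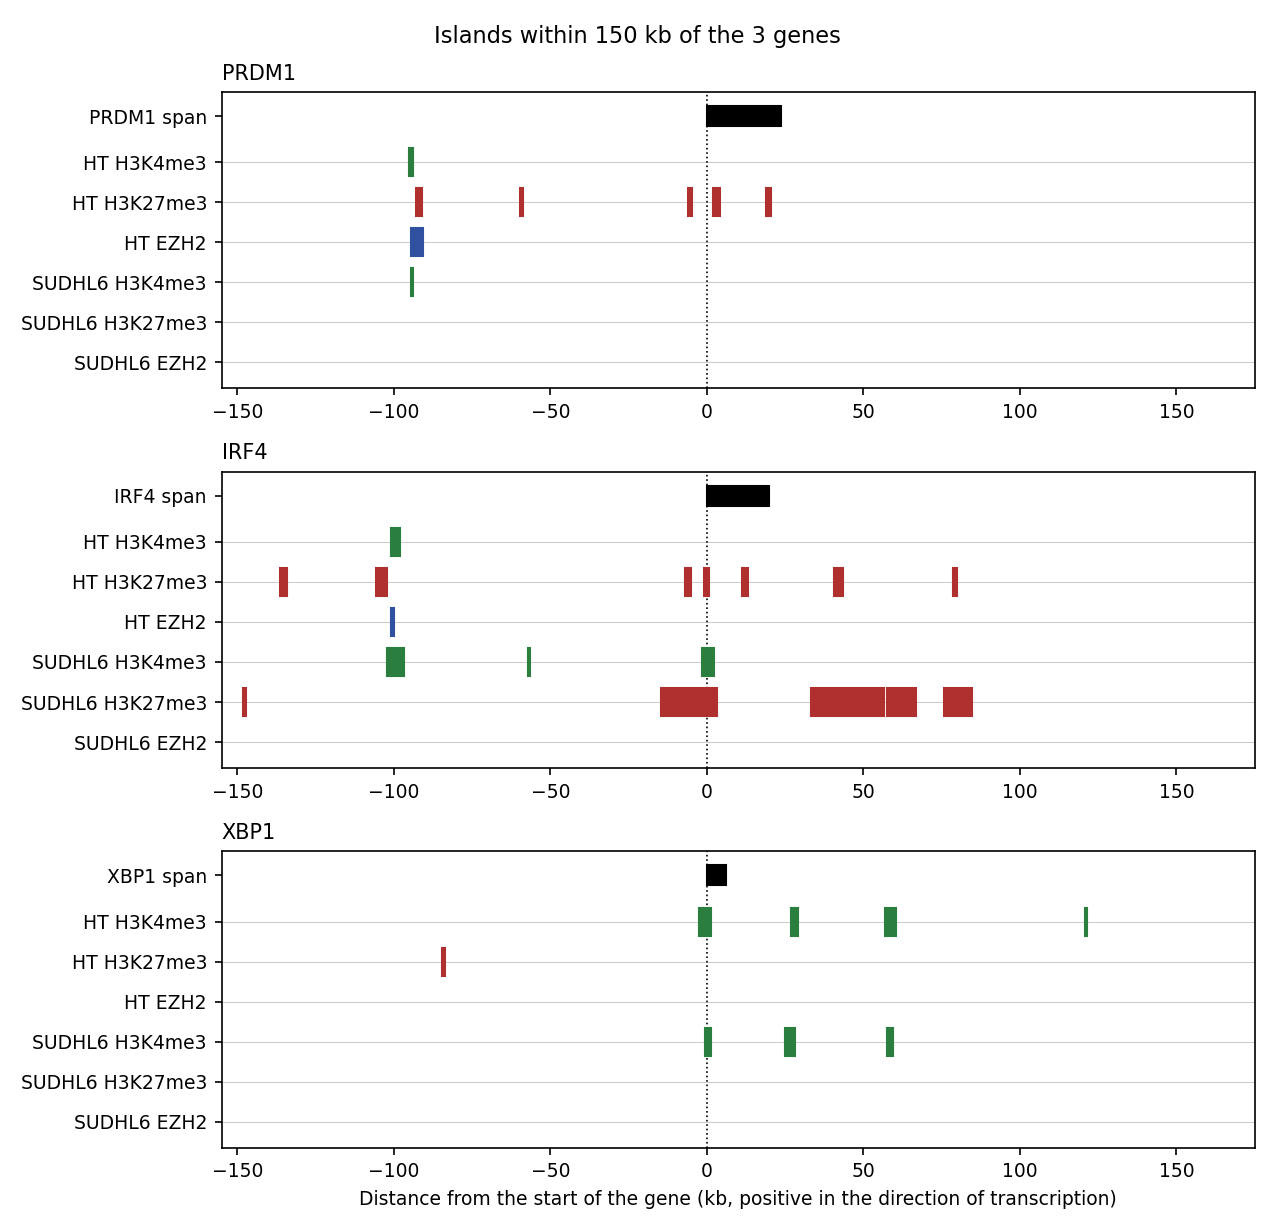
Islands of the 6 lists within 150 kb of each gene, by distance in kb from its start in the direction of transcription (green H3K4me3, red H3K27me3, blue EZH2; the black bar is the gene). The 2 EZH2 islands, both in HT, lie 90.7 kb before PRDM1 and 99.8 kb before IRF4, and the run of SUDHL6 H3K27me3 continues beyond the end of IRF4.

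Beyond the end of IRF4, SUDHL6 H3K27me3 resumed after 13658 bp without an island. Within 150 kb, 5 islands from 425101 to 476400 covered 39.9 kb of a span of 51.3 kb, the widest of them 13.95 kb (score 325). HT had 2 islands in this stretch, which covered 4.2 kb, and both lay wholly within islands of SUDHL6. With both sides of the gene and the gene itself, H3K27me3 within 150 kb of IRF4 covered 58.8 kb in 7 islands in SUDHL6 and 15.3 kb in 7 islands in HT. The number of islands was thus equal and their width was not. Within 150 kb of PRDM1, HT had 5 H3K27me3 islands over 8.1 kb and SUDHL6 had 0.

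XBP1 had H3K4me3 over its start in both lines. In HT the island lay on chromosome 22 from 29195251 to 29199150 (3.9 kb, score 140), from 2.59 kb before the start to 1.31 kb after it. In SUDHL6 it lay from 29195101 to 29197200 (2.1 kb, score 98), from 0.64 kb before to 1.46 kb after the start. They shared 1950 bp, which was 50% of the HT island and 92.9% of that of SUDHL6, so the lines differed on the upstream side. Within HT, 90.8% of H3K4me3 islands were narrower and 89.6% lower in score, and within SUDHL6 50.1% were narrower and 71.9% lower. By score per kb the order of the lines turned round. In HT 55.5% of the list was lower at 35.9 per kb, and in SUDHL6 77.1% was lower at 46.7 per kb. An H3K4me3 island present in both lines was the usual state, at 74.4% of HT and 59.0% of SUDHL6 islands. The HT island was 1.86 times as wide as that of SUDHL6. Among the 7845 pairs of H3K4me3 islands that overlapped 1 to 1, the median ratio was 1, and 88.3% had a lower ratio than XBP1. How far replicate libraries of 1 line would differ in width is not known.

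Neither H3K27me3 nor EZH2 came near XBP1. From the gene, the nearest H3K27me3 lay 83741 bp upstream in HT, as a 0.9 kb island with a score of 29 from 29280301 to 29281200, and 272741 bp upstream in SUDHL6, from 29469301 to 29471250 (1.95 kb, score 38). The nearest EZH2 lay 227141 bp upstream in HT, from 29423701 to 29428350 (4.65 kb, score 57), and 1177898 bp downstream in SUDHL6, from 28010251 to 28012650 (2.4 kb, score 32). This is the common state of H3K4me3 islands. Neither H3K27me3 nor EZH2 of the line lay within 5 kb of 85.4% of HT and 91.6% of SUDHL6 H3K4me3 islands. Measured from the H3K4me3 island over the start, the distance to H3K27me3 was 81.2 kb in HT and 272 kb in SUDHL6, against medians of 90 kb and 176 kb over all H3K4me3 islands with H3K27me3 on their chromosome. XBP1 thus stood near the middle of both lists, with 46.8% and 57.9% of islands nearer to H3K27me3.

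H3K4me3 islands followed on the downstream side of XBP1 in both lines. The nearest lay 20948 bp from the gene in HT, from 29167351 to 29169600 (2.25 kb, score 65), and 18848 bp in SUDHL6, from 29168551 to 29171700 (3.15 kb, score 103). The next pair lay from 29136151 to 29139600 in HT (3.45 kb, score 107) and from 29137201 to 29139150 in SUDHL6 (1.95 kb, score 94). The first pair was wider in SUDHL6 and the second in HT. On the upstream side the nearest H3K4me3 was far away in both lines, at 465641 bp in HT and 466541 bp in SUDHL6. Within 150 kb of XBP1, H3K4me3 covered 10.2 kb in HT and 7.2 kb in SUDHL6.

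**Figure D3:**
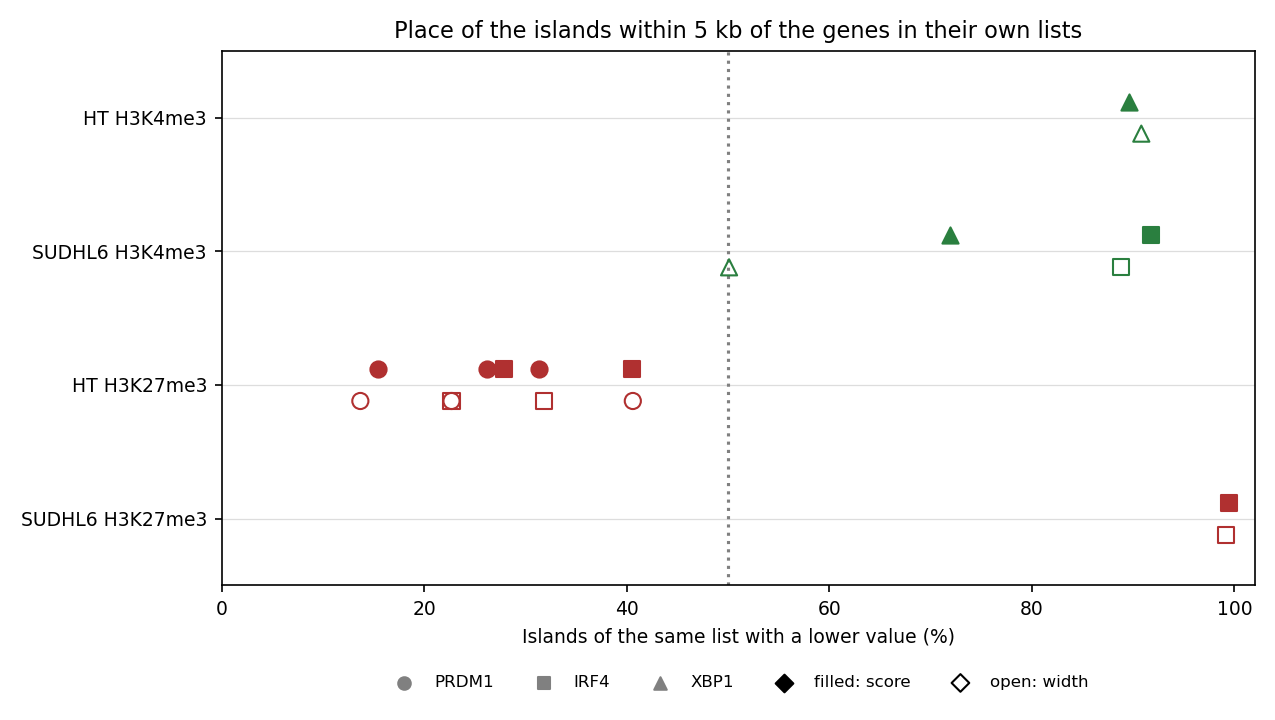
Place of each of the 9 islands within 5 kb of PRDM1 (circles), IRF4 (squares) and XBP1 (triangles) in its own list, as the percent of that list's islands with a lower score (filled) or a smaller width (open); the dotted line is at 50%. The 5 HT H3K27me3 islands all lie below 50%, and the SUDHL6 H3K27me3 island of IRF4 lies at 99.5% by score.

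The islands of the genes took different places in their lists. The 5 HT H3K27me3 islands at PRDM1 and IRF4 had scores from 27 to 42 and widths from 1.35 to 2.25 kb, all below the list's medians of 49 and 2550 bp. The SUDHL6 H3K27me3 island and the H3K4me3 islands of IRF4 in SUDHL6 and of XBP1 in HT lay above 88% of their lists by width and score. The SUDHL6 H3K4me3 island of XBP1 stood in between, with 50.1% of its list narrower and 71.9% lower in score. H3K27me3 at PRDM1 and IRF4 in HT thus rests on islands of low score. Keeping only the upper 50% of islands by score left none of these 5, which follows from their scores below the median.

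The lines also differed in the wide surroundings of PRDM1 and IRF4. From 5 Mb before to 5 Mb after PRDM1, HT had 44 H3K27me3 islands over 123 kb and 8 EZH2 islands over 30.9 kb. SUDHL6 had 7 H3K27me3 islands over 15.3 kb and 0 EZH2 islands there. H3K4me3 went the other way, with 68 kb in HT and 96 kb in SUDHL6, which was also the direction of the whole lists (25.5 and 33.0 Mb). Around IRF4 the window was cut by the start of the chromosome and held 5.41 Mb. There H3K27me3 covered 30.1 kb per Mb in HT and 107 kb per Mb in SUDHL6, and H3K4me3 7.96 and 23.0 kb per Mb. On chromosome 6 as a whole, H3K27me3 covered 2410 kb in HT and 4444 kb in SUDHL6, and H3K4me3 1306 kb and 2469 kb. Around XBP1 the lines were closer at this scale, with 28.1 and 34.3 kb per Mb of H3K27me3 and 11.6 and 12.2 kb per Mb of H3K4me3. They were less close in H3K27me3 with 1 Mb on each side of XBP1, at 18.5 kb per Mb in HT and 35.7 in SUDHL6. In that smaller window H3K4me3 covered 12.4 and 14.2 kb per Mb, and EZH2 had 4 islands over 12 kb in HT and 0 in SUDHL6. The direction of each H3K27me3 difference between the lines at PRDM1 and IRF4 was thus also that of the surrounding 10.02 and 5.41 Mb. The part of the surroundings in the state of the genes was not tested, and copy number was not measured.

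**Figure D4:**
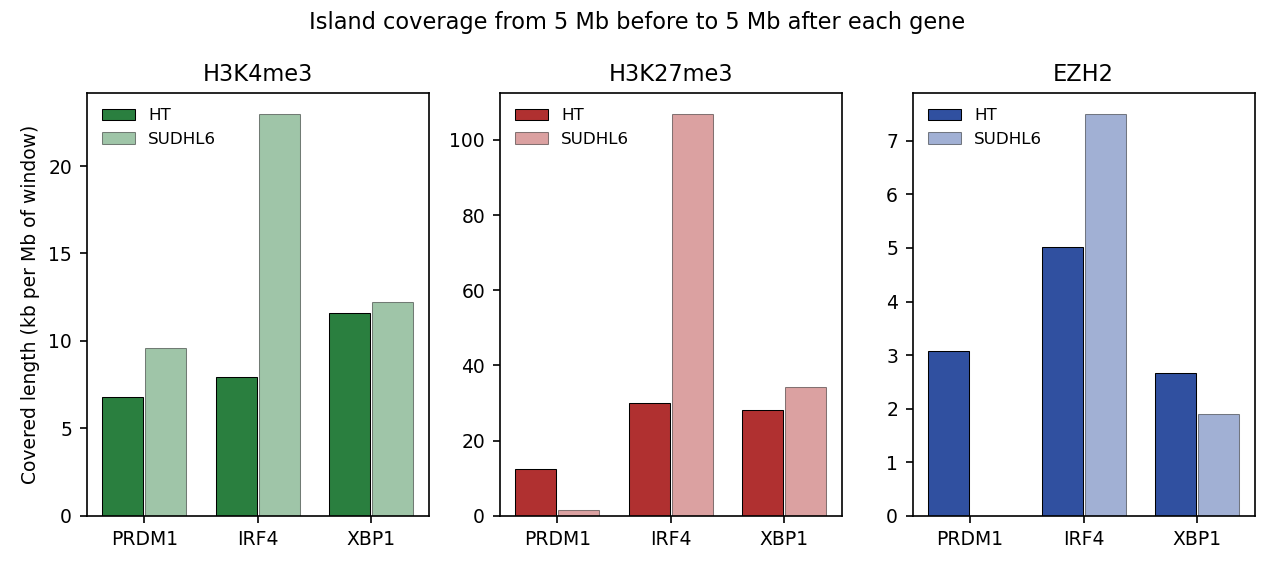
Covered length in kb per Mb of window from 5 Mb before to 5 Mb after each gene (for IRF4 from the start of the chromosome), for H3K4me3, H3K27me3 and EZH2, with HT in full and SUDHL6 in light colour; each bar is 1 library and has no error, and the vertical scales differ. Around PRDM1 SUDHL6 has 1.53 kb per Mb of H3K27me3 and no EZH2, and around IRF4 it has 107 kb per Mb of H3K27me3.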

How the data were processed

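ChIP-seq islands of 6 libraries were used, 1 for each of 2 lines and 3 antibodies. Per the submitters' processing notes, SICER was used on hg19. Window (150 bp), gap (450 bp) and FDR (1E-7) stand in the names of the deposited files. For aligner, filters, control and depth, nothing is given in the sources used here. The deposited score per island is the authors' own value. In the files, starts and ends fell on the window grid, and positions are counted from 1. Antibodies were not compared in level, since the names of the H3K27me3 lists show a different normalization.

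Gene spans on hg19 were given with the choice of genes. Presence meant at least 1 bp in the gene or 5 kb beside it. Members, motifs and lists were chosen with earlier results of these data known, and the windows of 150 kb, 1 Mb and 5 Mb after the values were seen. All islands within 5 kb and the nearest on each side were eligible to be named, others within 250 kb. A planned list of other plasma cell and B cell genes, and a check of the lines against marker genes, needed hg19 positions and were not run. Alternatives were other flanks, the upper 50% of islands by score, a minimum width of 1 kb, joining across gaps of up to 5 kb, another overlap between lines, and score per kb. On 400 simulated sets of islands, overlaps, covered lengths, distances and joins were right in 100%. The scripts ran on Python 3.11.15 with scipy 1.17.1, numpy 2.4.6 and, for plots, matplotlib 3.10.9.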

Additional observations from a re-analysis of the deposited data

How the results depend on the processing

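No paired analysis was possible because each line had 1 library per antibody. Narrower flanks and stricter lists can only remove a call, and wider flanks and joining can only add one. Of the 18 comparisons of the removing kind, 2 removed a call, and of the 24 of the adding kind, 0 added one. Most of these outcomes were fixed by where the islands lay. Every call had an island wider than 1 kb over the gene itself, so neither the 1 kb flank nor the width limit could remove it. Where none was called, the nearest island lay at least 83741 bp away, so neither a flank of 10 kb nor joining could add a call. Only the score limit was able to change a call. With only the upper 50% of islands by score, H3K27me3 at PRDM1 and at IRF4 in HT went from present to absent (0). The HT minus SUDHL6 difference in covered H3K27me3 was then 0 bp at PRDM1 and -8212 bp at IRF4. At IRF4 it was -612 bp with a flank of 1 kb, -7812 bp with 10 kb and -600 bp with islands joined, always lower in HT. Covered H3K4me3 at XBP1 was 210 bp higher in HT with a flank of 1 kb. No difference reversed.

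Under the same setting, the nearest island lay farther away for H3K4me3 from PRDM1 (399837 bp in HT and 214287 bp in SUDHL6), for SUDHL6 H3K27me3 and EZH2 from PRDM1 (43687887 and 19508787 bp), for HT EZH2 from IRF4 (450158 bp), and for HT H3K27me3 and SUDHL6 EZH2 from XBP1 (228491 and 2319791 bp). With islands of at least 1 kb, the distances were 214287 bp for SUDHL6 H3K4me3 from PRDM1, 298658 bp for HT EZH2 from IRF4 and 228491 bp for HT H3K27me3 from XBP1. These settings drop small or low islands by construction. Joining widened the HT H3K27me3 island over the start of IRF4 to 7500 bp, since it took in the upstream island. By score per kb, 84% of the list was lower than this island and 73.8% lower than SUDHL6 H3K4me3 at IRF4. For H3K4me3 at XBP1 the share was 55.5% in HT and 77.1% in SUDHL6.

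Over whole lists, H3K27me3 lay within 1 kb of 4.11% and within 10 kb of 10.6% of HT H3K4me3 islands, and of 3.92% and 10% in SUDHL6. EZH2 lay within 1 kb of 8.37% and within 10 kb of 11.6% in HT, and of 2.05% and 3.61% in SUDHL6. With an overlap of 50% of the island, 66.3% of HT and 51.5% of SUDHL6 H3K4me3 islands were present in the other line. Depth is unknown, so small islands missing in 1 line cannot be told from a shallower library.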

Other observations

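In the first megabase of chromosome 6, which holds IRF4, the lines had the same number of H3K27me3 islands (17 each), and these covered 40.5 kb in HT and 124.5 kb in SUDHL6. H3K4me3 was called in 2 islands over 4.35 kb in HT and in 13 islands over 32.4 kb in SUDHL6. EZH2 covered 6.45 kb in 3 HT islands and 5.55 kb in 1 SUDHL6 island. The H3K4me3 island over the start of IRF4 was thus 1 of 13 called there in SUDHL6.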
